A study of Mus musculus with 4 samples.

Results

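Matricellular proteins are secreted proteins of the extracellular matrix that act on cells through their surface receptors more than they bear load. When the smooth muscle cells that contract the artery wall lose their contractile state in culture or after injury, they become migratory and secrete matrix, a condition in which osteopontin, fibronectin, thrombospondins and tenascin-C are well known products. The 10 genes described here, of 22488 listed per library, were taken by symbol: Spp1, Fn1, Thbs1, Thbs2, Postn, Tnc, Sparc, Mgp, Mfge8 and Lgals3. All 10 were found in all 4 libraries, and all 10 passed the filter on low values used below (a mean of at least 1 FPKM over the 4 libraries).

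The cells were mouse vascular smooth muscle cells of strain C57BL/6 at passages 4 to 10, and no allele, transgene or other agent is labelled. Of the 4 RNA sequencing libraries, 2 came from cells given a scramble siRNA and 2 from cells given an siRNA against circEsyt2, a circular RNA from the gene Esyt2, each for 48 hours. Untransfected cells were not analysed here, so which of the 2 siRNAs moved a gene cannot be told apart. The labels do not say whether the 2 libraries of a group are separate cultures. The p-values below therefore speak only of the spread between these libraries, and that spread may be technical. Levels are in FPKM, that is scaled to gene length and library total, and can be set side by side between genes. FPKM does not correct for the make-up of a library. Over all genes it summed to between 282254 and 310669 per library, so comparisons between libraries also depend on the scaling.

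Between 2516428 and 4116791 reads were assigned to genes per library. Esyt2 itself was at 53.4 and 50.6 FPKM with scramble siRNA and at 40.6 and 48.7 FPKM with circEsyt2 siRNA (limma, adjusted p = 0.318), a value that does not separate the circle from the linear transcript. The level of circEsyt2 itself was not analysed here. Smooth muscle identity rested mainly on Acta2, at 829 to 1446 FPKM, with Tpm2 at 59.1 to 160.0 and Cnn1 at 19.8 to 62.6 FPKM. Tagln (5.08 to 10.4 FPKM), Myh11 (1.15 to 8.58) and Des (0.423 to 1.04) were low. Fibroblast markers summed to 505 to 734 FPKM, led by Col1a1, Dcn and Mfap5. Endothelial markers (Kdr, Cdh5 and Emcn the highest) summed to 4.04 to 9.43 FPKM and osteochondrogenic markers (Runx2, Sox9 and Alpl the highest) to 11.6 to 21.1 FPKM. One library stood apart: 20 hepatocyte markers summed to 3895 FPKM in circEsyt2 siRNA library 1, with Alb at 2082.5, Apoa1 at 228 and Apoa2 at 196 FPKM, and all 20 were above 0. The same sum was 131 FPKM in circEsyt2 siRNA library 2, also above the 20.0 and 13.8 FPKM of the scramble libraries. Of the 20 markers, 17 were at 1 FPKM or more in circEsyt2 siRNA library 2, against 3 and 4 in scramble libraries 1 and 2. The 2 circEsyt2 siRNA libraries are therefore given apart.

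Several of these proteins bind integrins through the tripeptide arginine, glycine, aspartate, the adhesion motif first known from fibronectin. The codons of this tripeptide are shown because integrin genes are among the receptors measured below. Whether an integrin binds each site was not tested. In the longest coding sequence of each gene in GENCODE M21 (GRCm38), 5 of the 10 members held at least 1 such site, against 7.20% of 21652 genes with a coding sequence. Each line gives 45 coding bases, 5′ to 3′ on the gene's strand, with the 9 bases of the tripeptide in capitals.
Spp1, codon 145 (plus strand, chr5:104439481-104439489): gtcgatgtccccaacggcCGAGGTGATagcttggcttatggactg
Fn1, codon 1614 (minus strand, chr1:71606746-71606754): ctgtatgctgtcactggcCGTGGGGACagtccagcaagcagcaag
Fn1, codon 2181 (minus strand, chr1:71597443-71597451): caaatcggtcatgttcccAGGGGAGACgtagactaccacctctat
Thbs1, codon 927 (plus strand, chr2:118122882-118122890): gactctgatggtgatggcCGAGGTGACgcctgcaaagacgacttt
Thbs2, codon 928 (minus strand, chr17:14671484-14671492): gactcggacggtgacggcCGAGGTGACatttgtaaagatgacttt
Mfge8, codon 87 (minus strand, chr7:79145308-79145316): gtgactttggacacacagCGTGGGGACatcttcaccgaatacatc

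All 6 sites lie within coding exons, exon 7 of 8 in Spp1, exons 30 and 40 of 46 in Fn1, exon 18 of 22 in both thrombospondin genes and exon 3 of 10 in Mfge8. Postn, Tnc, Sparc, Mgp and Lgals3 held none in the coding sequence searched. Of the 5 genes with a site, Spp1 and Thbs1 were called lower, Fn1 higher, and Thbs2 and Mfge8 were not called. Of the 5 without one, Lgals3 and Postn were called higher, and Tnc, Sparc and Mgp were not called. A relation between a site and the direction was not tested.

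With circEsyt2 siRNA, fibronectin, galectin-3 and periostin transcripts rose by 1.48- to 1.85-fold by mean FPKM, while osteopontin and thrombospondin-1 transcripts fell to 0.578 and 0.721 of the scramble mean. Of the 10 members, limma called 3 higher (Fn1, Lgals3, Postn) and 2 lower (Spp1, Thbs1), and 5 did not pass (Thbs2, Tnc, Sparc, Mgp, Mfge8). Called means a Benjamini-Hochberg adjusted p under 0.05 over all 11290 genes tested. Of all genes tested, 5.47% were called higher and 7.26% lower. The median log2 fold change of the 10 members was 0.03, and that of all genes tested was 0.0037. Leaving out either scramble library ended all 5 calls. The directions could not turn there, because the groups of these 5 genes did not overlap. All 5 calls also ended with limma's eBayes without its trend option, at adjusted p = 0.0539 to 0.148.

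**Figure D1:**
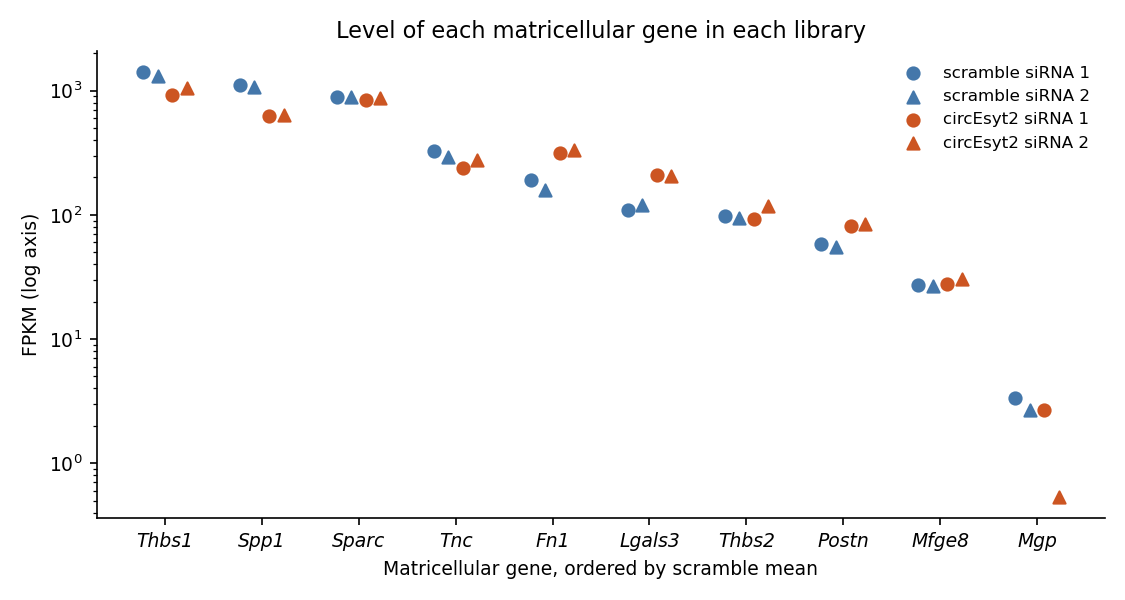
FPKM (log axis) of each of the 10 genes in each of the 4 libraries, circles for replicate 1 and triangles for replicate 2, ordered by the scramble mean. Spp1 and Thbs1 sit lower and Fn1, Lgals3 and Postn higher in both circEsyt2 siRNA libraries, and Mgp lies far below the other genes, at 0.539 to 3.35 FPKM.

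The order of the levels was the same in the 2 scramble libraries: Thbs1, Spp1, Sparc, Tnc, Fn1, Lgals3, Thbs2, Postn, Mfge8 and Mgp, from high to low. It was also the same in the 2 circEsyt2 siRNA libraries, where Sparc stood above Spp1 and Fn1 above Tnc. In each group the ranges of neighbouring genes in the order did not overlap, over 2 libraries each. The 10 genes together took 2.01% and 1.88% of the assigned reads in scramble libraries 1 and 2, against 1.72% and 1.88% in circEsyt2 siRNA libraries 1 and 2. Ratios within a library do not depend on how libraries are scaled, but they and the order depend on the gene lengths used. Fn1 was at 0.173 and 0.148 of the Spp1 level in the scramble libraries and at 0.507 and 0.519 in the circEsyt2 siRNA libraries. Lgals3 was at 0.0987 and 0.112 of the Spp1 level with scramble siRNA and at 0.339 and 0.320 with circEsyt2 siRNA.

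Fn1 encodes fibronectin, which cells assemble into fibrils through integrin alpha5 beta1 and which hepatocytes also secrete into plasma. The gene lies on the minus strand (chr1:71585520-71653200, GRCm38). Its level was 191 and 159 FPKM in the scramble libraries, and 316 and 330 FPKM in circEsyt2 siRNA libraries 1 and 2. Both circEsyt2 siRNA values lay above both scramble values. The log2 fold change on the log2(FPKM + 1) scale was 0.89 (SE 0.12; limma adjusted p = 0.0107). Against the scramble mean, library 1 was higher by 0.86 and library 2 by 0.92. The hepatocyte markers summed to 3895 FPKM in library 1 and to 131 FPKM in library 2, and their part in the Fn1 values was not tested. Without library 1 the log2 fold change was 0.92 (adjusted p = 0.0269), and without library 2 it was 0.86 and the call was lost (adjusted p = 0.0719).

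Lgals3 encodes galectin-3, a lectin that binds beta-galactosides on matrix and surface glycoproteins and is also abundant in macrophages (chr14:47367751-47386160). It was at 109 and 120 FPKM with scramble siRNA and at 211 and 204 FPKM in circEsyt2 siRNA libraries 1 and 2, with no overlap. The log2 fold change was 0.85 (SE 0.10; limma adjusted p = 0.00794). The 12 macrophage markers summed to 13.3 and 17.4 FPKM in the scramble libraries, 51.0 in circEsyt2 siRNA library 1 and 10.4 in library 2, and their part in the Lgals3 values was not tested. Against the scramble mean, Lgals3 was higher by 0.88 in library 1 and by 0.83 in library 2. Of these markers Ptprc was at 0.174 to 0.653 FPKM, Adgre1 at 0 to 1.89, Csf1r at 0.262 to 3.48 and Cd14 at 4.48 to 10.1. Lyz2 reached 21.4 FPKM in library 1 against 0.923 to 1.21 elsewhere. C1qb (4.88 FPKM), Tyrobp (3.98) and Cd68 (3.59) were also highest in library 1, and at most at 1.53 FPKM elsewhere. Csf1r, C1qa, Fcer1g and Itgam were not highest there. Without library 1 the adjusted p of Lgals3 was 0.0236, and without library 2 it was 0.0508.

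Postn encodes periostin, a secreted protein with fasciclin domains that binds integrins and takes part in collagen crosslinking (chr3:54361109-54391037). Its level was 57.8 and 54.7 FPKM with scramble siRNA and 81.4 and 84.8 FPKM in circEsyt2 siRNA libraries 1 and 2. The groups did not overlap, and the log2 fold change was 0.56 (SE 0.11; limma adjusted p = 0.0262). This call was lost without either circEsyt2 siRNA library (adjusted p = 0.0529 without library 1, adjusted p = 0.0902 without library 2), with log2 fold changes of 0.59 and 0.53, and with the replicate number as a block (adjusted p = 0.0616).

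Spp1 encodes osteopontin, a phosphorylated glycoprotein that binds integrins and CD44 and is a classical product of dedifferentiated smooth muscle (chr5:104435118-104441050). It was among the most abundant genes, at 1102 and 1075 FPKM with scramble siRNA and 623 and 636 FPKM in circEsyt2 siRNA libraries 1 and 2. Its rank among all genes went from 20 and 24 to 37 and 36. The level fell by 42.2% on the mean, and the log2 fold change was −0.79 (SE 0.08; limma adjusted p = 0.00546). Spp1 was the 1 member still called when either circEsyt2 siRNA library was left out (adjusted p = 0.0150 without library 1, adjusted p = 0.0432 without library 2).

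Thbs1 encodes thrombospondin-1, a trimeric glycoprotein that binds CD47 and CD36 and activates latent TGF-beta (chr2:118111876-118127133). It was the highest member in every library, at 1414 and 1317 FPKM with scramble siRNA and 919 and 1050.3 FPKM in circEsyt2 siRNA libraries 1 and 2. The groups did not overlap. The log2 fold change was −0.47 (SE 0.10; limma adjusted p = 0.0381), and it was −0.57 in library 1 and −0.38 in library 2. The call was lost when any 1 of the 4 libraries was left out, and with no filter on low values, quantile normalization, eBayes without a trend or the replicate block (adjusted p = 0.0682 to 0.323 in these 8 fits).

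**Figure D2:**
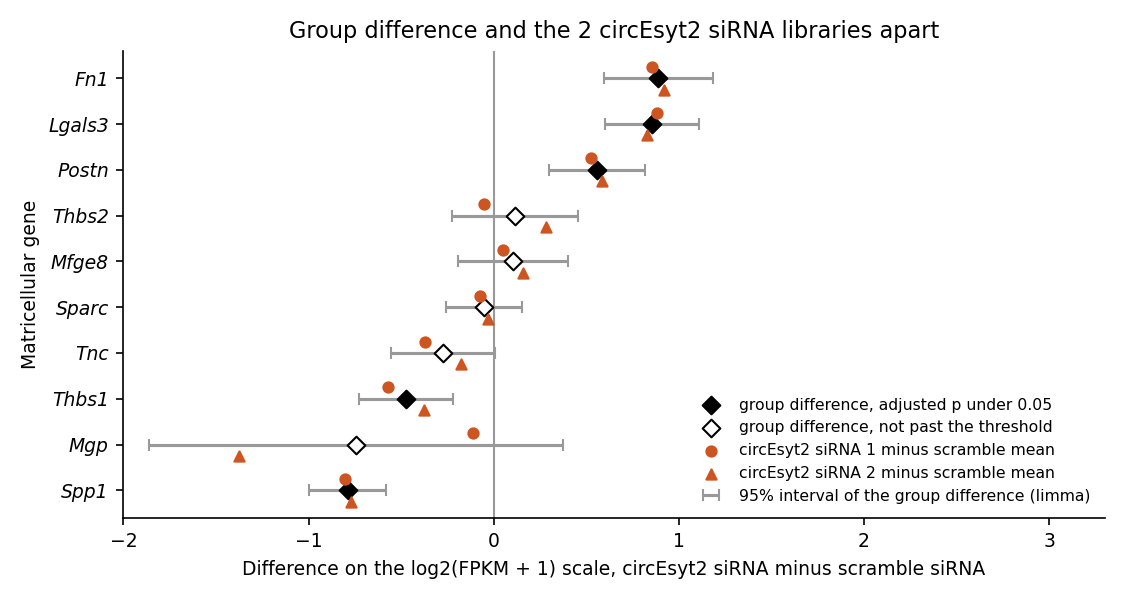
Difference between circEsyt2 siRNA and scramble siRNA on the log2(FPKM + 1) scale for each gene (diamond, filled where the adjusted p is under 0.05), with its 95% interval from limma, and each circEsyt2 siRNA library minus the scramble mean (circle, library 1; triangle, library 2). The 5 called genes have both libraries on the same side of 0, and so do Tnc, Sparc, Mgp and Mfge8, which were not called. For Thbs2 library 1 is at −0.05 and library 2 at 0.28.

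The other 5 members did not pass the test. Thbs2, which encodes the related trimer thrombospondin-2, was at 98.3 and 94.3 FPKM with scramble siRNA and at 92.9 and 117 FPKM in circEsyt2 siRNA libraries 1 and 2, on either side of the scramble values. Its log2 fold change was 0.12, with a 95% interval of −0.22 to 0.46. Thbs1 stood at 14.4 and 14.0 times the Thbs2 level in the scramble libraries and 9.89 and 8.95 times in the circEsyt2 siRNA libraries. Tnc, which encodes the hexameric tenascin-C of migrating and healing tissue, was at 328 and 294 FPKM against 239.5 and 275 FPKM. The Tnc groups did not overlap, but the interval of its log2 fold change, −0.56 to 0.01, reached 0 (limma adjusted p = 0.177).

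Sparc, which encodes a collagen-binding, counter-adhesive glycoprotein, was at 886 and 889 FPKM against 843 and 867 FPKM. The interval of its log2 fold change was −0.26 to 0.15. Mfge8 encodes lactadherin, which links phosphatidylserine on dying cells to integrins on the cells that clear them. It was at 27.1 and 26.8 FPKM against 28.0 and 30.2 FPKM, with an interval of −0.19 to 0.40. In all, 4 members lay higher and 4 lower without overlap between the groups, where 29.7% and 31.1% of all genes tested did so.

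Mgp encodes matrix Gla protein, an inhibitor of arterial calcification. It was barely detected, at 3.35 and 2.66 FPKM with scramble siRNA and 2.69 and 0.539 FPKM in circEsyt2 siRNA libraries 1 and 2. These values rest on 10, 13, 12 and 2 reads. The exact Poisson 95% intervals, which cover counting error only, were 1.61 to 6.16, 1.42 to 4.55, 1.39 to 4.69 and 0.0653 to 1.95 FPKM, so they overlap in all 4 libraries. A difference in Mgp between the groups was not detectable at this depth. The other 9 members rest on 320 to 32922 reads per library.

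Promoter sequence is shown for Spp1 and Postn, 1 member that fell and 1 that rose. RefSeq's table for GRCm38.p6 held promoters of 7 of the 10 members. The 250 bases before the start site were searched on both strands for AP-1 (TGANTCA), RUNX (AACCACA), Sp1 (GGGCGG), NF-Y (CCAAT), ATF4 composite (TGATGNAA) and CArG box motifs, and on the gene's strand for a TATA box (TATAAA). Both lines run 5′ to 3′ on the plus strand, with the matches in capitals.
Spp1, chr5:104434861-104435110: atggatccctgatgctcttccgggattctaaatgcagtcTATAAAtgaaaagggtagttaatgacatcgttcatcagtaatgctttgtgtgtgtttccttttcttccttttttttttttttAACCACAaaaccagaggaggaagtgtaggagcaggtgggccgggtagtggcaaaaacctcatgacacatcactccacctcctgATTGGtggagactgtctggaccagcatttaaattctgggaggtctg
Postn, chr3:54360857-54361106: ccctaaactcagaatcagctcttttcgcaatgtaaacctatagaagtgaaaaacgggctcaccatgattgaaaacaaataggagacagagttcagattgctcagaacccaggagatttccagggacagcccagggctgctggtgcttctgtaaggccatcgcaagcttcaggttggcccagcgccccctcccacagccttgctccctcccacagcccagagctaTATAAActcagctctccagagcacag

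RefSeq lists 2 promoters for each of these genes. The windows shown are those with a motif match, and the other window of each gene held none of the 7 motifs. In the Spp1 window the matches, by their first base before the start site, were TATAAA at −211, AACCACA at −129 and ATTGG, the reverse complement of CCAAT, at −46. In the Postn window TATAAA stood at −26. Over 32851 promoters the same windows held TATAAA in 7.59%, AACCACA in 4.40% and CCAAT in 33.85%. A match describes the letters only.

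Of the 21 genes in the receptor list, which includes Cav1, 16 were tested. Of these 1 was called higher, 3 lower and 12 not called, where 5.47% of all genes tested were called higher and 7.26% lower. The list had a median log2 fold change of −0.34 beside 0.0037 for all genes tested. Itgb1 encodes the beta1 chain shared by most matrix integrins. It was at 355 and 382 FPKM with scramble siRNA and 493 and 587 FPKM in circEsyt2 siRNA libraries 1 and 2 (log2 fold change 0.54, limma adjusted p = 0.0368). Its fibronectin partner Itga5 was at 162 and 139 FPKM against 167 and 215 FPKM (log2 fold change 0.33, adjusted p = 0.208).

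Itgav, an alpha chain of integrins that bind osteopontin and lactadherin, fell from 51.5 and 47.5 FPKM to 22.9 and 28.7 FPKM (log2 fold change −0.92, limma adjusted p = 0.0173). Among its beta partners, Itgb5 was at 35.6 and 37.2 FPKM against 36.2 and 43.2 FPKM and Itgb3 at 2.49 and 1.73 FPKM against 1.08 and 1.68 FPKM, neither called. Sdc4, a heparan sulphate co-receptor for fibronectin, fell from 91.1 and 95.0 FPKM to 51.5 and 46.7 FPKM (log2 fold change −0.91, adjusted p = 0.00836). Cav1, the caveolar protein linked to fibronectin uptake, is in the list although it is not itself a receptor. It fell from 106 and 118 FPKM to 69.9 and 73.7 FPKM (log2 fold change −0.63, adjusted p = 0.0212). The osteopontin receptor Cd44 was at 151 and 163 FPKM against 126 and 132 FPKM and the thrombospondin receptor Cd47 at 63.1 and 67.7 FPKM against 62.6 and 63.5 FPKM, and neither was called.

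**Figure D3:**
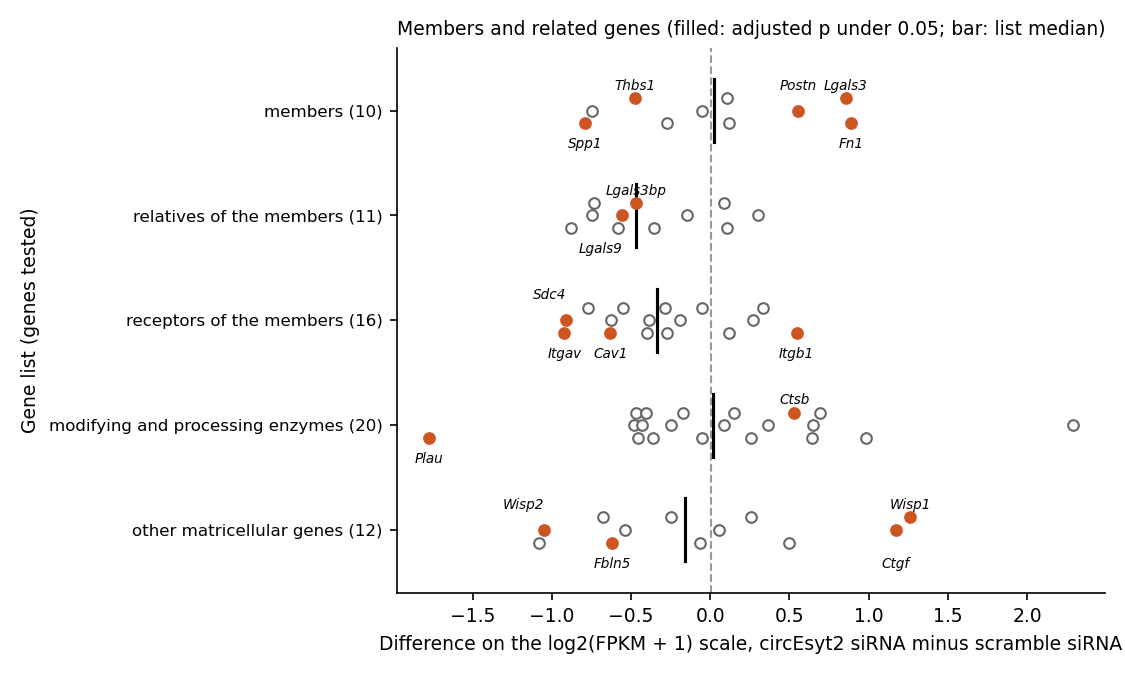
Difference between circEsyt2 siRNA and scramble siRNA on the log2(FPKM + 1) scale for the tested genes of each list, filled and named where the adjusted p is under 0.05, with a bar at the list median and a dashed line at the median of all genes tested. The members split to both sides of 0. Of the 4 called genes in the receptor list 3 lie below it, among them Cav1, a caveolar protein that is not itself a receptor.

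Of the 28 family relatives of the members, 11 were tested, and of these 0 were called higher, 2 lower and 9 not called. Among all genes tested, 5.47% were called higher and 7.26% lower. The 2 lower genes were galectin-related. Lgals9, galectin-9, fell from 219 and 213 FPKM to 148 and 146 FPKM (log2 fold change −0.56, limma adjusted p = 0.0188). Lgals3bp, a secreted glycoprotein that binds galectin-3, fell from 386 and 328 FPKM to 255 and 258 FPKM (log2 fold change −0.47, adjusted p = 0.0477). Lgals1, the most abundant galectin here, was at 1050.5 and 1047 FPKM against 1255 and 989 FPKM and was not called. The SPARC relative Fstl1 was at 507 and 516 FPKM against 375 and 425 FPKM (adjusted p = 0.0726), and Thbs3 at 4.70 and 3.98 FPKM against 1.65 and 2.85 FPKM (adjusted p = 0.131).

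Other matricellular genes outside the 10 included the CCN family of growth factor-binding matrix proteins. Of the 12 tested genes in this list, 2 were called higher, 2 lower and 8 not, beside the same 5.47% and 7.26%. Ctgf (CCN2), a fibrosis-linked member, rose from 345 and 387 FPKM to 781 and 869.8 FPKM (log2 fold change 1.17, limma adjusted p = 0.00467). Wisp1 (CCN4) rose from 20.4 and 19.9 FPKM to 48.2 and 51.2 FPKM (log2 fold change 1.26, adjusted p = 0.00470). Wisp2 (CCN5) fell from 66.1 and 64.8 FPKM to 30.0 and 32.2 FPKM (log2 fold change −1.05, adjusted p = 0.00557). Cyr61 (CCN1) was at 309 and 336 FPKM against 316 and 355 FPKM, with a log2 fold change of 0.06 (adjusted p = 0.750). Fbln5, an elastic fibre protein, fell from 45.8 and 47.0 FPKM to 31.2 and 28.6 FPKM (log2 fold change −0.62, adjusted p = 0.0259).

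Enzymes and factors that modify or cleave the members came next. Of 20 tested, 1 was called higher, 1 lower and 18 not, near the 5.47% higher and 7.26% lower among all genes tested. Plau, the urokinase that activates plasminogen, fell from 15.9 and 14.2 FPKM to 4.71 and 2.84 FPKM (log2 fold change −1.78, limma adjusted p = 0.0101). Ctsb, the lysosomal protease cathepsin B, rose from 144 and 146 FPKM to 213 and 206 FPKM (log2 fold change 0.53, adjusted p = 0.0216). Bmp1, the proteinase that also processes procollagen, was at 22.3 and 19.2 FPKM against 29.2 and 36.9 FPKM (adjusted p = 0.0568), and Adamts1 at 31.0 and 29.2 FPKM against 20.8 and 22.4 FPKM (adjusted p = 0.0665). Ggcx, which carboxylates the Gla residues of Mgp, and Fam20c, which phosphorylates osteopontin, were both under 7 FPKM in every library and not called. Plg, the liver-made plasminogen, was at 27.1 FPKM in circEsyt2 siRNA library 1 and at 0 to 0.107 FPKM in the other 3.

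The 12 calls among related genes kept their direction in the alternative fits that held them (Ctgf, Wisp1 and Wisp2 were not in the voom fit on recovered reads). Leaving out a library could not turn these directions, as the groups of each of these genes did not overlap. None of the 12 calls was made without scramble library 1 or without scramble library 2. At an unadjusted p under 0.05, limma put 6 of the related genes higher and 9 lower in the first of these fits, and 6 higher and 11 lower in the other. The calls of Ctgf, Wisp1, Wisp2 and Plau ended in no other fit that held them. With eBayes without a trend the other 8 calls ended too (adjusted p = 0.0502 to 0.154). With the replicate block those of Lgals9, Lgals3bp, Itgb1, Ctsb and Fbln5 ended (adjusted p = 0.0506 to 0.0875). With no filter on low values the calls of Lgals3bp (limma adjusted p = 0.0979) and Itgb1 (0.0833) ended, and with median ratio scaling that of Lgals3bp (0.0537). Without circEsyt2 siRNA library 1 the calls of Lgals3bp (adjusted p = 0.0964), Cav1 (0.0531) and Ctsb (0.0505) ended. Without circEsyt2 siRNA library 2 those 3 and Lgals9 (adjusted p = 0.0680), Itgb1 (0.107) and Fbln5 (0.0887) ended.

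**Figure D4:**
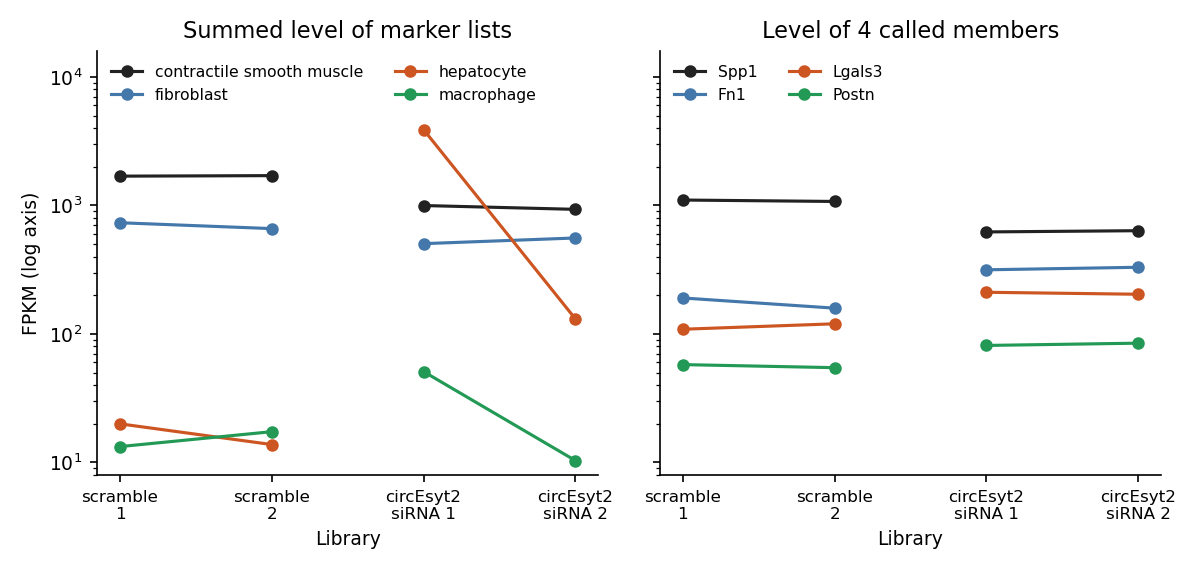
Summed FPKM of 4 marker lists (left) and FPKM of 4 called members (right) in each library, on log axes, with a line joining the 2 libraries of a group. The hepatocyte sum is 3895 in circEsyt2 siRNA library 1 and 131 in library 2, while Fn1 is at 316 and 330 FPKM in the same libraries.

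The 10 contractile smooth muscle markers summed to 1692 and 1707 FPKM with scramble siRNA and 999 and 933 FPKM with circEsyt2 siRNA. Acta2 made most of each sum, at 1421 and 1446 FPKM against 883 and 829 FPKM. Acta2, Tpm2, Cnn1, Lmod1, Smtn, Myh11 and Mylk were called lower (limma adjusted p = 0.00384 to 0.0442), where 7.26% of all genes tested were. Tagln and Synpo2 were not called, and Des was not tested. The contractile sums did not overlap between the groups. Nor did the fibroblast marker sums (734 and 661 FPKM against 505 and 559 FPKM) or the low endothelial ones (4.04 and 4.54 FPKM against 9.43 and 7.97 FPKM). The osteochondrogenic sums (18.2 and 21.1 FPKM against 11.6 and 17.5 FPKM) and the hepatocyte ones given above did not overlap either. Of single genes tested, 29.7% lay higher and 31.1% lower without overlap. Single markers in a list did not all follow its sum. Mfap5 was at 67.7 and 64.7 FPKM against 29.4 and 26.4 FPKM (limma adjusted p = 0.00501). Thy1 (log2 fold change −2.09) and Pdgfra (−1.34) were called lower too, and no fibroblast marker was called higher. Dcn, at 184 and 190 FPKM against 205 and 192 FPKM, was not called (adjusted p = 0.585). Neither Sox9, at 8.84 and 10.0 FPKM against 1.16 and 4.41 FPKM (adjusted p = 0.0623), nor Runx2, at 5.94 and 7.31 FPKM against 7.99 and 10.7 FPKM (adjusted p = 0.213), was called. The part of these lists in the members' results was not tested. In bulk samples, fewer cells of a type and less RNA per cell cannot be told apart.

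By the distance between patterns over the 4 libraries on the log2(FPKM + 1) scale, each gene centred on its own mean, the 3 of 6840 genes closest to Fn1 were Abl2 (distance 0.06), Ubn1 (0.06) and Runx1 (0.08). Runx1, a transcription factor gene, was at 6.345 and 4.81 FPKM with scramble siRNA and 10.3 and 11.1 FPKM with circEsyt2 siRNA. Those closest to Spp1 were Gtf3c1 (distance 0.02), Cenpe (0.03) and Timp2 (0.04). Timp2, a metalloproteinase inhibitor gene, was at 449.8 and 426 FPKM against 252 and 261 FPKM. The distance was taken over 4 libraries only.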

How the data were processed

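The files deposited by the authors hold FPKM per gene, 1 file per library. Per the submitters' processing notes the tools included Trimmomatic, HISAT2 and featureCounts and the builds GRCm38 and mm10. Tool versions, settings, the annotation release and strandedness were not given in the sources used here. Exons of 4 members overlap another gene of GENCODE M21: Spp1 (309 bases), Fn1 (292), Thbs1 (208) and Tnc (176), so some of their reads may belong to the other gene. The Spp1 overlap is on the same strand and the other 3 are on opposite strands.

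Reads per gene and library totals were solved from the digits of the FPKM values with M21 exon lengths. In each library 96.5% to 96.7% of values above 0 came out whole within 0.0001, including all values of the 10 members. These totals are reads assigned to genes, not reads sequenced.

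Groups came from the sample titles. Groups were compared by limma 3.58.1 (R 4.3.3), using eBayes with its trend option, on log2(FPKM + 1) values of 11290 genes that had a mean of at least 1 FPKM over all 4 libraries, two-sided, with Benjamini-Hochberg adjustment over all of them and a threshold of 0.05. A fold change on this scale understates that of low genes. Confidence intervals are 95%. The fit was tested on simulated data. Related genes were listed as relatives, receptors, modifying enzymes and other matricellular genes, and the 4 with the smallest p of each list were named, with further genes chosen after their values were seen. From each marker list the 3 highest by mean FPKM were named, with further markers also chosen after their values were seen. Named too were the 3 tested protein-coding genes of at least 5 FPKM closest in pattern to the members with the largest rise and fall. Members and lists were chosen with earlier results of these data known. Alternatives were another pseudocount, filter, scaling and variance setting, a replicate block, leaving out each library, and limma's voom on the recovered reads of 10809 genes.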

Additional observations from a re-analysis of the deposited data

How the results depend on the processing

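Each called member kept its direction in all 11 alternative fits, with log2 fold changes of 0.76 to 1.02 for Fn1, 0.77 to 0.92 for Lgals3, 0.52 to 0.59 for Postn, −0.81 to −0.77 for Spp1 and −0.57 to −0.30 for Thbs1. Most of these fits could not have turned a direction. By design, dropping the filter, the trend option or adding the replicate block leaves a fold change as it is. Nor could leaving out 1 library turn it, since the groups of each called member did not overlap. Calls were lost in some of the fits, and the cause was not tested. With eBayes without a trend 0 members were called higher and 0 lower (limma; 3 and 2 at an unadjusted p under 0.05), 577 genes in all, and 2 related genes each way. Quantile normalization left 1 member called lower, and so did dropping the low-value filter. The replicate number in the titles is not said to mark a shared culture, and the replicate 1 minus replicate 2 differences of the 2 groups had a Pearson r of −0.05 over 11290 genes. With the replicate block 2 members were called higher and 1 lower, with 2 related genes higher and 5 lower, and 1008 genes in all. Leaving out 1 library at a time, which leaves a lone library assumed to vary like the other group, gave 0 to 2 members higher, 0 to 1 lower, 0 to 1027 genes in all, and 0 to 4 related genes higher and 0 to 7 lower. All of these counts were 0 without scramble library 1 and without scramble library 2, where limma put 1959 and 2231 genes at an unadjusted p under 0.05, among them 3 members higher in both fits, and 1 and 2 lower. No member was called higher without circEsyt2 siRNA library 2 (3 at an unadjusted p under 0.05), where 500 genes were called. The log2 fold change of Thbs2, not called, was −0.050 without circEsyt2 siRNA library 2 and 0.28 without library 1. Voom on recovered reads called 3 members higher and 2 lower. Median ratio scaling moved the median of all genes by under 0.1. Among the members, read depth limits Mgp.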

Other observations

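Read numbers recovered from the FPKM values were more often even than odd among the lowest genes. In scramble libraries 1 and 2, 714 and 673 genes had 1 read and 1775 and 1577 genes had 2. In circEsyt2 siRNA libraries 1 and 2, 423 and 424 genes had 1 read and 1466 and 1871 had 2, and 301 and 321 genes had 3 reads against 1032 and 1173 with 4. The counting intervals given for Mgp treat each read as independent, and whether paired reads were counted apart was not tested.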
